A study of Homo sapiens with 18 samples.

Results

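The difference in the transcript response to heat shock between cells with silenced Lonp1 and cells with a scramble siRNA was analysed in SW620, an established line of human colon cancer cells. The 12 libraries used, of the 18 of the series, form 4 groups of 3: scramble siRNA at 37 °C (Ctrl_siCtrl, called Ctrl scramble here), Lonp1 siRNA at 37 °C (Ctrl_siLONP1, Ctrl siLonp1), scramble siRNA after 1 h at 42 °C (HS_siCtrl, HS scramble) and Lonp1 siRNA after 1 h at 42 °C (HS_siLONP1, HS siLonp1). The other 6 libraries are of cells left to recover at 37 °C after the heat, and they serve only for side-by-side values. The study's methods describe more than one siRNA against Lonp1 and do not say which was sequenced, and all groups come from 1 cell line. For each gene, the heat effect in the scramble arm was subtracted from the heat effect in the siLonp1 arm, on the log2 scale, and this difference of differences is called the interaction. Levels are in CPM, the counts of a gene scaled to a common library size. Genes above 1 CPM in at least 3 of the 12 libraries were tested, which left 12676 of 26485. CPM values below were scaled by TMM factors, and all adjusted p-values of the interaction come from edgeR's quasi-likelihood test with Benjamini-Hochberg adjustment over these genes.

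Lonp1 is an ATP-dependent protease of the mitochondrial matrix that degrades damaged and short-lived proteins. Heat unfolds proteins, and the transcription factor HSF1, held back by chaperones in unstressed cells, then binds heat shock elements in promoters and drives the genes of HSP70, HSP90, their J-domain and BAG partners and the small heat shock proteins. A separate programme, the integrated stress response, slows translation and favours translation of ATF4, a factor that binds C/EBP-ATF elements in genes for amino acid supply, growth arrest and cell death. Heat also raises immediate early genes and stops or slows the transcription of many other genes.

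Promoter stretches of 4 genes with a higher heat effect in the siLonp1 arm are shown because each holds a short motif of one of those programmes, which most genes described below do not. They were read from RefSeq on GRCh38.p14, plus strand, 5′ to 3′, with the motif in capitals. In the DNAJB6 promoter (chr7:157336838-157336922) the capitals mark the 13 bases that fit a heat shock element of 3 alternating GAA and TTC units, spaced by 2 bases. In the promoters of HERPUD1 (chr16:56931931-56932015), CHAC1 (chr15:40953227-40953311) and ATF3 (chr1:212565181-212565265) they mark TGATGNAA or its reverse complement TTNCATCA, the core of a C/EBP-ATF element.
DNAJB6: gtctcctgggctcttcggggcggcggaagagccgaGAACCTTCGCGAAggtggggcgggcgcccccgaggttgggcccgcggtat
HERPUD1: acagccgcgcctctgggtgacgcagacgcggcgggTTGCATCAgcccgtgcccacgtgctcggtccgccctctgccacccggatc
CHAC1: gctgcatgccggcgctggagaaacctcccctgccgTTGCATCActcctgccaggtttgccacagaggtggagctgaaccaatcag
ATF3: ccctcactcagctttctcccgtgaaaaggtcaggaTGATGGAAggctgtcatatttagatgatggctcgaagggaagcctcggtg
The motifs begin 131 bases before the annotated start in DNAJB6, 176 in HERPUD1, 209 in CHAC1 and 191 in ATF3. Both strands were searched. Of 27305 promoters of 300 bases in the table, 0.487% held the triple heat shock element and 3.67% the C/EBP-ATF core. The triple element was not found in the windows of HSPH1, HSPA4, HSPA4L, HSPA1L, DNAJA4, AHSA1, HSP90AA1, HSP90AB1 or BAG3, and the C/EBP-ATF core not in those of ATF4, DDIT4 or SESN2, all of which had a higher heat effect. Among the genes chosen for naming that had a promoter sequence, the triple element was also in the windows of DNAJA1 and GAS5. The core was also in those of HSPA4L and of PLK3, a kinase gene with a lower heat effect. Matches in other genes are not given. A match is a run of letters and not a bound site. Promoter sequences were at hand for 75.3% of the genes with a higher and 76.2% of those with a lower heat effect, so no motif shares were compared between them.

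Silencing was present in every siLonp1 library. LONP1 was at 224, 228 and 217 CPM in Ctrl scramble and at 19.5, 22.7 and 19.6 in Ctrl siLonp1, and it was at 224, 233 and 201 in HS scramble and at 12, 11.7 and 12 in HS siLonp1. The siLonp1 libraries lay below the scramble libraries at both temperatures, and the heated siLonp1 libraries lay below the unheated ones. LONP1 itself was thus among the genes with a lower heat effect in the siLonp1 arm (interaction −0.77, SE 0.093, adjusted p = 0.000113). HSF1 fell with silencing, from 85.3 to 92.3 CPM in Ctrl scramble to 70.8 to 80.5 in Ctrl siLonp1, and its interaction was −0.20 (adjusted p = 0.141). The interaction was −0.24 and passed (adjusted p = 0.0397) without HS scramble replicate 3, a library that stood apart from its mates. Without HS siLonp1 replicate 1, which also stood apart, it did not pass (adjusted p = 0.192). It passed without both (adjusted p = 0.0444), and not in a fit to all 18 libraries (adjusted p = 0.377). For HSF2, another heat shock factor, the interaction was −0.16 (adjusted p = 0.289).

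Library totals ran from 30815860 to 45013503 counts. The lowest was that of HS scramble replicate 3, and the next lowest, of Ctrl siLonp1 replicate 3, was 38838617. Of 10 colon epithelial markers 8 were tested, and their summed level was 9430 to 12200 CPM. The keratins KRT8 and KRT18 made up most of it, at group means of 5040 to 6310 and 2800 to 3480 CPM. KRT20 (0.427 to 0.985) and LGALS4 (0.119 to 0.269) were under 1 CPM. From Ctrl scramble to Ctrl siLonp1, CDX2 went from 30.2 to 16 CPM and CDH17 from 10.5 to 1.19, while CDH1 went from 105 to 160. The summed level was 16.4 to 21.8 CPM for the leukocyte markers and 23.8 to 48 for the fibroblast markers. A pair of heated libraries stood apart from their group mates. In a chi-square test of counts between replicates, divided by its degrees of freedom, HS scramble replicate 3 gave 16.1 and 20 against the other replicates of its group, and HS siLonp1 replicate 1 gave 15.1 and 13.9, where the other pairs gave 3.62 to 9.34. The number of genes called in several lists moved when they were left out, and the numbers are given beside those lists.

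Heat shock raised 2869 genes in scramble cells (22.6%) and 2958 in siLonp1 cells (23.3%). It lowered 2270 genes in scramble cells (17.9%) and 3022 in siLonp1 cells (23.8%). The interaction passed an adjusted p of 0.05 for 735 genes: in 146 the heat effect was higher in the siLonp1 arm (1.15%) and in 589 it was lower (4.65%). Most differences were small, since only 10 genes (0.0789%) were more than 2-fold higher and 13 (0.103%) more than 2-fold lower. Without HS scramble replicate 3, the library farthest from its mates, there were 631 higher and 1197 lower genes, and without both libraries that stood apart there were 506 and 997. Without HS scramble replicate 1 there were 79 and 324, and a fit to all 18 libraries gave 61 and 179. Among the genes named below, that fit did not call ATF3, BAG3, CLK1, CNPY1, DDIT4, DICER1-AS1, DNAJA4, DNAJC22, HES1, HSP90AA1, HSP90AB1, JAG1, JAG2, NOTCH1, PIM3, PPP1R15A, RAB30, RGS2 or TP53TG1, at adjusted p-values of 0.0525 to 0.219, and it changed the sign of none of them. Leaving out replicate 1, 2 or 3 of Ctrl scramble gave 95, 89 and 96 higher genes, and leaving out Ctrl siLonp1 replicate 1 gave 93. The lower genes came to 373, 392 and 386 without Ctrl scramble replicate 2, Ctrl scramble replicate 3 and HS scramble replicate 2. No called gene changed sign when any 1 library was left out, and 62 higher and 289 lower genes passed in all 12 of these fits.

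**Figure D1:**
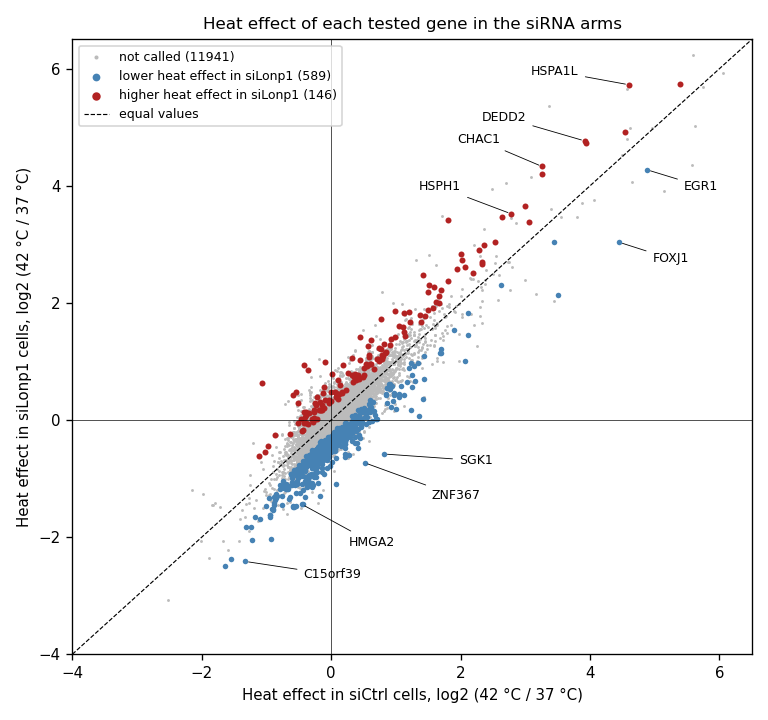
Each point is a gene. The horizontal axis is the log2 heat effect in scramble cells and the vertical axis the log2 heat effect in siLonp1 cells. Coloured points passed the test of the interaction. Points above the diagonal, 146 of them called, had the higher heat effect in siLonp1 cells, and the 589 called points below it had the lower one. The axes leave out 8 genes.

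The 2 directions differed in what heat did to the genes. Of the 146 genes with a higher effect, 88 (60.3%) were raised by heat in both arms and 26 were raised in the siLonp1 arm and not called in the scramble arm. Another 20 were lowered in the scramble arm and not called in the siLonp1 arm. Of the 589 genes with a lower effect, 256 (43.5%) were lowered by heat in both arms, 180 were lowered in the siLonp1 arm and not called in the scramble arm, and 68 were raised in the scramble arm and not called in the siLonp1 arm. Only 52 were raised in both. Thus the larger set was mostly of genes that fell further, or fell at all, in heated siLonp1 cells.

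The direction also differed between genes that heat raised and genes that it lowered, each chosen in the same libraries by the average heat effect over both arms. The 76 genes that heat lowered more than 2-fold on average had a median heat effect of −0.99 in scramble and −1.46 in siLonp1 cells, and their median interaction was −0.48, or −0.28 with no filter on low counts. Among them 68 lay below 0, 31 were called lower (40.8%, against 4.65% of all genes) and 0 higher. In single heated libraries the median over these genes was −0.993, −0.977 and −1.07 in scramble and −1.42, −1.46 and −1.44 in siLonp1 cells, so the groups did not overlap. The 364 genes that heat raised more than 2-fold on average had a median interaction of 0.10, with 50 called higher (13.7%, against 1.15% of all genes) and 19 lower (5.22%, against 4.65%). Their median per heated library was 1.38, 1.45 and 1.42 in scramble and 1.49, 1.5 and 1.5 in siLonp1 cells. Over all genes tested the median interaction was −0.02.

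Among the chaperones, several members of the HSP110 and HSP70 families had a higher heat effect. Of 15 tested genes of these families 4 were called higher (26.7%, against 1.15% of all genes) and 0 lower, and their median interaction was 0.16. HSPH1 (chr13:31134973-31162388), an HSP110 that exchanges nucleotide on HSP70, was at 284, 269 and 288 CPM in Ctrl scramble, 253, 248 and 268 in Ctrl siLonp1, 1940, 1960 and 1879 in HS scramble and 2966, 2882 and 2987 in HS siLonp1. Every heated siLonp1 library was above every heated scramble library, whereas at 37 °C the siLonp1 libraries were the lower ones. Heat raised HSPH1 6.87-fold in scramble and 11.5-fold in siLonp1 cells (interaction 0.74, SE 0.066, adjusted p = 5.03e-06). HSPA4L, a relative of HSPH1, was at 23.2, 22.2 and 23.9 CPM in Ctrl scramble, 18.5, 19.2 and 20.2 in Ctrl siLonp1, 54.7, 54.8 and 49.5 in HS scramble and 67.6, 66.8 and 72.8 in HS siLonp1. It showed the same order of the groups with no overlap between the arms (interaction 0.64, SE 0.084, adjusted p = 0.000257). HSPA4, the third HSP110 of the cytosol, had a smaller difference (interaction 0.30, adjusted p = 0.0167), and its call was lost without Ctrl scramble replicate 1 or 3, Ctrl siLonp1 replicate 1 or HS siLonp1 replicate 3, with an interaction of 0.27 to 0.33 over the leave-one-out fits.

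HSPA1L had the largest interaction of the chaperones. This HSP70 lies beside HSPA1A on the opposite strand, and the strand setting of the counting is not given in the sources used here, so reads of its neighbour cannot be told apart from its own. It was at 0.904, 0.809 and 0.922 CPM in Ctrl scramble, 0.691, 0.748 and 0.748 in Ctrl siLonp1, 21.4, 22.1 and 20.3 in HS scramble and 37.9, 39.4 and 38.9 in HS siLonp1 (interaction 1.13, SE 0.17, adjusted p = 0.000729). The heated arms did not overlap. None of the inducible HSP70 genes passed the test with all 12 libraries: the interaction was −0.22 for HSPA1A (adjusted p = 0.158), 0.08 for HSPA1B (adjusted p = 0.537) and 0.26 for HSPA6 (adjusted p = 0.439), although heat raised each by more than 6 on the log2 scale in both arms. The value of HSPA1A without HS scramble replicate 3 was −0.26 and passed as lower (adjusted p = 0.045), and without both libraries that stood apart it was −0.23 (adjusted p = 0.0653). HSPA1A and HSPA1B are near-identical copies that can share reads, so their values are uncertain. HSPA8, the constitutive HSP70, was at 6756, 6367 and 7575 CPM in HS scramble and 9730, 8661 and 9083 in HS siLonp1, with an interaction of 0.26 that did not pass (adjusted p = 0.0834), and of 0.33 that did without HS scramble replicate 3 (adjusted p = 0.00293). It also passed without both libraries that stood apart (adjusted p = 0.00188). It did not pass without HS siLonp1 replicate 1 alone (adjusted p = 0.18) or in the fit to 18 libraries (adjusted p = 0.204).

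J-domain proteins bring substrates to HSP70 and start its ATPase. Of 38 tested, 5 were called higher (13.2%, against 1.15% of all genes) and 2 lower (5.26%, against 4.65%). Their median interaction was 0.02, against −0.02 over all genes. Without HS scramble replicate 3 there were 7 higher (18.4%, against 4.99% of all genes) and 4 lower (10.5%, against 9.47%). The fit to 18 libraries called 3 higher (7.89%, against 0.475%) and 1 lower (2.63%, against 1.39%). DNAJB6, whose heat shock element is printed above and which holds back protein aggregation, was at 113, 110 and 114 CPM in Ctrl scramble, 106, 109 and 111 in Ctrl siLonp1, 217, 210 and 215 in HS scramble and 292, 273 and 286 in HS siLonp1. The unheated arms overlapped and the heated arms did not (interaction 0.46, SE 0.063, adjusted p = 0.000369). DNAJA1, a main cytosolic partner of HSC70, was raised 3.16-fold in scramble and 4.32-fold in siLonp1 cells (interaction 0.45, adjusted p = 0.00207). DNAJA4 was raised 23.4-fold and 30.3-fold (interaction 0.37, adjusted p = 0.00297). DNAJB1, a strongly induced member, reached 5267, 5289 and 5736 CPM in HS scramble and 6652, 6382 and 6409 in HS siLonp1, and its interaction was 0.04 (adjusted p = 0.817). It was also higher in Ctrl siLonp1 than in Ctrl scramble, by 0.22 on the log2 scale. DNAJC27 went the other way, with an interaction of −1.12.

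The HSP90 list had 3 of 15 members called higher (20%, against 1.15% of all genes) and 0 lower. There was 1 higher (6.67%) without HS siLonp1 replicate 1, against 0.862% of all genes, and 1 in the fit to 18 libraries, against 0.475%. AHSA1, an activator of the HSP90 ATPase, was at 205, 205 and 209 CPM in Ctrl scramble, 170, 179 and 178 in Ctrl siLonp1, 327, 347 and 363 in HS scramble and 455, 365 and 414 in HS siLonp1. Its heated arms did not overlap (interaction 0.48, SE 0.090, adjusted p = 0.00414). HSP90AA1 (0.28, adjusted p = 0.0388) and HSP90AB1 (0.22, adjusted p = 0.0488) passed narrowly. Over the 12 fits that each leave out a library their interactions were 0.25 to 0.33 and 0.19 to 0.24. The call of HSP90AA1 was kept in 3 of these fits, which left out the third replicate of Ctrl siLonp1, the third of HS scramble or the second of HS siLonp1, and that of HSP90AB1 in 1, without HS scramble replicate 3. BAG3, a cochaperone of HSP70 that directs clients to autophagy, was raised 42.1-fold in scramble and 53.3-fold in siLonp1 cells (interaction 0.34, adjusted p = 0.0167), and its call was lost without Ctrl scramble replicate 1 or Ctrl siLonp1 replicate 1, at 0.29 to 0.42 over the leave-one-out fits. None of the 4 small heat shock proteins tested, the 8 subunits of the cytosolic chaperonin or the 9 mitochondrial chaperones was called in either direction, and without HS scramble replicate 3 there was 1 higher in each of the last pair of lists. HSPB1 had an interaction of −0.01 (adjusted p = 0.981), and HSPD1, the chaperonin of the mitochondrial matrix, one of 0.20 (adjusted p = 0.0846).

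A list of 24 HSF1 target genes had 9 called higher (37.5%, against 1.15% of all genes) and 0 lower, with a median interaction of 0.25. In the fit to 18 libraries 4 were called higher (16.7%, against 0.475%). A list of 8 genes for qRT-PCR had 6 called higher (75%) and 0 lower, and 3 (37.5%) in the fit to 18 libraries. Each list holds 1 further gene, CREB3L3, which was below the filter and not tested. Both lists were taken from figures and methods of the study of these same libraries, so their direction is not independent evidence. Besides the chaperones they hold RAB30, a small GTPase of the Golgi, with an interaction of 0.43 (adjusted p = 0.00937). They also hold TGFBR3, a coreceptor of TGF-beta, which was at 32.6, 29.8 and 33.2 CPM in Ctrl scramble, 9.75, 11.6 and 10.6 in Ctrl siLonp1, 51.4, 48.4 and 46.6 in HS scramble and 26.6, 26.4 and 29.2 in HS siLonp1. TGFBR3 was thus lower in siLonp1 cells at both temperatures, while its heat effect was higher (interaction 0.74, SE 0.099, adjusted p = 0.000272).

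**Figure D2:**
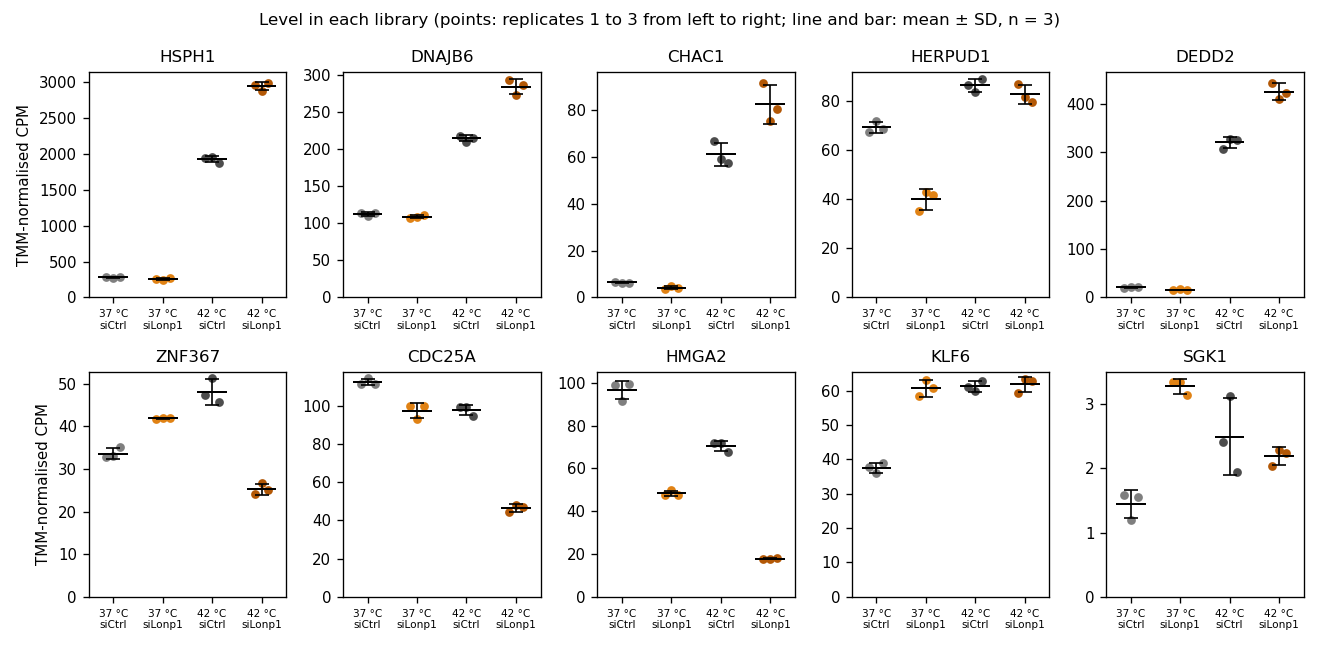
Levels of 10 genes in TMM-scaled CPM on linear axes from 0, with 1 point for each library and lines at the group mean and SD (n = 3), at 37 °C and 42 °C in scramble (siCtrl) and siLonp1 cells. HSPH1 and DNAJB6 separate the arms at 42 °C, HERPUD1 separates them at 37 °C and not at 42 °C, and ZNF367, CDC25A and HMGA2 reach their lowest level in HS siLonp1.

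Genes of the integrated stress response also had many members of higher heat effect. Of 28, 10 were called higher (35.7%, against 1.15% of all genes) and 1 lower (3.57%, against 4.65%), with a median interaction of 0.22. In the fit to 18 libraries 5 (17.9%, against 0.475%) and 0 were called. CHAC1, which degrades glutathione, was at 6.77, 6.37 and 6.02 CPM in Ctrl scramble, 3.51, 4.81 and 3.94 in Ctrl siLonp1, 66.7, 59.1 and 57.2 in HS scramble and 91.6, 75.2 and 80.4 in HS siLonp1. It was the lowest in Ctrl siLonp1 and the highest in HS siLonp1, with no overlap between arms at either temperature (interaction 1.07, SE 0.15, adjusted p = 0.000297). ATF4, the central factor of the response, was at 665, 675 and 635 CPM in Ctrl scramble, 555, 572 and 549 in Ctrl siLonp1, 707, 716 and 748 in HS scramble and 883, 839 and 822 in HS siLonp1. Its order was the same (interaction 0.47, SE 0.066, adjusted p = 0.000394). DDIT4, an inhibitor of mTORC1, rose 15.3-fold in scramble and 26.7-fold in siLonp1 cells (interaction 0.80, adjusted p = 0.00265). ATF3, a repressor induced downstream of ATF4, had an interaction of 0.63 (adjusted p = 0.0166), which was 0.48 and not called without Ctrl scramble replicate 2.

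SESN2, a member of the same list and a leucine sensor that restrains mTORC1, was at 11.5, 10.6 and 11.6 CPM in Ctrl scramble and 5.07, 4.69 and 6.81 in Ctrl siLonp1, and at 49.8, 47.1 and 38.6 in HS scramble and 40.4, 38.9 and 39.3 in HS siLonp1. The arms were apart at 37 °C (interaction 0.83, SE 0.15, adjusted p = 0.00305). At 42 °C they overlapped only through HS scramble replicate 3, which stood apart, and its mates were above all HS siLonp1 libraries. HERPUD1, a component of the degradation of proteins from the endoplasmic reticulum and not a member of that list, was at 67.4, 72 and 68.7 CPM in Ctrl scramble, 35.1, 43.2 and 41.6 in Ctrl siLonp1, 86.8, 83.8 and 89 in HS scramble and 87.2, 81.9 and 79.7 in HS siLonp1. Every Ctrl siLonp1 library was below the 9 others, and the heated arms overlapped (interaction 0.73, SE 0.091, adjusted p = 0.00015). HERPUD1 was the only 1 of 23 genes of the unfolded protein response of the endoplasmic reticulum to be called. Of the integrated stress response, DDIT3 (0.42, adjusted p = 0.0568) and TRIB3 (0.32, adjusted p = 0.0515) did not pass, and both did without HS scramble replicate 3 (0.46, adjusted p = 0.023, and 0.28, adjusted p = 0.0424). They also passed without both libraries that stood apart (adjusted p = 0.0408 and 0.0489). Neither passed without HS siLonp1 replicate 1 alone (adjusted p = 0.126 and 0.0931) or in the fit to 18 libraries (adjusted p = 0.139 and 0.0825). PPP1R15A, which restores translation by directing a phosphatase to eIF2 alpha, was the integrated stress response member with a lower heat effect (−0.36, adjusted p = 0.0044).

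Outside these lists, DEDD2, a nuclear protein with a death effector domain, had one of the smallest p-values. It was at 20.5, 22.4 and 20.7 CPM in Ctrl scramble, 15.2, 16.5 and 15.2 in Ctrl siLonp1, 308, 328 and 326 in HS scramble and 444, 410 and 423 in HS siLonp1 (interaction 0.85, SE 0.079, adjusted p = 8.15e-06). The siLonp1 libraries were below the scramble libraries before heat and above them after it. Clusterin (CLU), a secreted chaperone, had the same crossing (interaction 0.83, adjusted p = 0.000539), as did RGS2, which shortens G protein signals (0.96, adjusted p = 0.00626, and 0.118 in the fit to 18 libraries). INHBE, a subunit of activins, was at 8.16, 9.24 and 7.83 CPM in HS scramble and 15.7, 13.4 and 15.2 in HS siLonp1, while its arms overlapped at 37 °C (interaction 0.97, SE 0.15, adjusted p = 0.000854). The kinases of splicing factors CLK1 (0.49, adjusted p = 0.00256) and CLK4 (0.71, adjusted p = 0.00289) were both called higher, out of 8 CLK and SRPK genes (25%, against 1.15% of all genes). The fit to 18 libraries called CLK4 alone.

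Host genes of small nucleolar RNAs had 5 of 22 members called higher (22.7%, against 1.15% of all genes) and 0 lower. There were 10 higher without HS scramble replicate 3 (45.5%, against 4.99% of all genes) and 3 without HS siLonp1 replicate 1 (13.6%, against 0.862%). There were 8 without both (36.4%, against 4.01%) and 3 in the fit to 18 libraries (13.6%, against 0.475%). SNHG3 was at 32.9, 35.3 and 38.7 CPM in Ctrl scramble, 32.2, 32.3 and 36 in Ctrl siLonp1, 18.2, 17.6 and 22.8 in HS scramble and 30.5, 27.4 and 26.4 in HS siLonp1. Heat lowered it in both arms, less so in siLonp1 cells (interaction 0.62, SE 0.13, adjusted p = 0.00624). Genes named as long non-coding RNAs had 7 of 317 called higher (2.21%, against 1.15% of all genes) and 0 lower. Their share of higher genes was 6.73% without HS scramble replicate 3, against 4.99% of all genes, and 0.962% without HS siLonp1 replicate 1, against 0.862%. The fit to 18 libraries called 2 higher (0.631%, against 0.475% of all genes) and 0 lower. Several are antisense genes, such as GAS6-AS2 (0.96), DICER1-AS1 (1.21) and CCDC183-AS1 (1.71), and their reads cannot be told apart from those of the opposite gene without the strand setting. After recovery, CCDC183-AS1 had means of 0.878 CPM in scramble and 0.681 in siLonp1 cells, and DICER1-AS1 of 0.969 and 0.980, near the filter of 1 CPM. CCDC183-AS1 was higher in Ctrl scramble than in Ctrl siLonp1 and HS scramble. Its other pairs of groups that differ in 1 factor overlapped, so its large value may rest on Ctrl scramble, which was not tested. The DICER1-AS1 call was kept in 5 of the 12 fits that leave out a library, with values of 0.95 to 1.39. It was kept without replicate 2 of Ctrl scramble, 1 of Ctrl siLonp1, 3 of HS scramble, 2 of HS siLonp1 or 3 of HS siLonp1, and lost without any other library.

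Cytosolic ribosomal proteins shared a direction, but their count turned on 1 library. Of 83 genes 78 had an interaction above 0 (94.0%, against 46% of all genes), with a median of 0.19, and 2 were called higher (2.41%, against 1.15%). Their summed level was 72896, 77399 and 73985 CPM in Ctrl scramble, 77943, 76630 and 76181 in Ctrl siLonp1, 69220, 69197 and 80162 in HS scramble and 92067, 82845 and 82647 in HS siLonp1. HS scramble replicate 3 lay above its mates, and HS siLonp1 replicate 1 above its own. Without HS scramble replicate 3, 51 of the genes were called higher (61.4%, against 4.99% of all genes), and without both 44 (53%, against 4.01%). There were 0 without HS siLonp1 replicate 1 and 0 in the fit to 18 libraries. Subunits of the respiratory chain were alike, with 76 of 81 above 0 and 1 called higher (1.23%). They had 26 called higher without HS scramble replicate 3 (32.1%) and 22 without both (27.2%).

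Among genes with a lower heat effect in siLonp1 cells, those of DNA replication and the entry into S phase had 8 of 34 called lower (23.5%, against 4.65% of all genes) and 0 higher, with a median interaction of −0.16. The fit to 18 libraries called 4 (11.8%, against 1.39% of all genes). CDC25A, the phosphatase that activates CDK2 (chr3:48157146-48188417), was at 112, 114 and 111 CPM in Ctrl scramble, 99.7, 93.3 and 99.8 in Ctrl siLonp1, 99.6, 99.5 and 94.9 in HS scramble and 44.5, 48.3 and 46.9 in HS siLonp1. The heated siLonp1 libraries were far below the 9 others, which lay close together (interaction −0.87, SE 0.068, adjusted p = 9.68e-07). CDT1, which loads the replicative helicase, was at 97.8, 101 and 98.9 CPM in Ctrl scramble, 81.8, 76.9 and 78.2 in Ctrl siLonp1, 118, 124 and 102 in HS scramble and 55.8, 58 and 55.7 in HS siLonp1. Heat raised it in scramble and lowered it in siLonp1 cells (interaction −0.69, SE 0.085, adjusted p = 0.000131). ORC1 (−0.44, adjusted p = 0.00163) and CDC6 (−0.37), which mark origins with CDT1, were also called lower. Of 40 genes of mitosis only 2 were called lower (5.00%), close to the share of all genes.

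The smallest p-value of the interaction was that of ZNF367 (chr9:96385941-96418370), a zinc finger factor. It was at 32.9, 33 and 35 CPM in Ctrl scramble, 41.6, 41.9 and 42 in Ctrl siLonp1, 47.2, 51.4 and 45.6 in HS scramble and 24.1, 26.6 and 25 in HS siLonp1. Heat raised it 1.43-fold in scramble cells and lowered it to 0.603 of its level in siLonp1 cells, with no overlap between any pair of groups that differ in 1 factor (interaction −1.25, SE 0.082, adjusted p = 1.43e-07). HMGA2 (chr12:65824460-65966291), a chromatin protein of undifferentiated cells, was at 99.1, 91.7 and 99.2 CPM in Ctrl scramble, 47.5, 49.8 and 47.6 in Ctrl siLonp1, 72, 72 and 67.8 in HS scramble and 17.9, 17.5 and 18.1 in HS siLonp1. Silencing and heat each lowered it, and the product of the separate effects was still above the level of HS siLonp1 (interaction −0.99, SE 0.073, adjusted p = 5.57e-07). Zinc finger genes as a class had 46 of 473 called lower (9.73%, against 4.65% of all genes) and 2 higher (0.423%, against 1.15%). The fit to 18 libraries called 15 lower (3.17%, against 1.39%) and 1 higher (0.211%, against 0.475%). There were 72 lower (15.3%, against 9.47% of all genes) and 7 higher (1.49%, against 4.99%) without HS scramble replicate 3. Without both libraries that stood apart there were 63 lower (13.5%, against 7.91%) and 6 higher (1.28%, against 4.01%).

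Transcription factors of development followed. Of 28 homeobox genes 8 were called lower (28.6%, against 4.65% of all genes) and 1 higher (3.57%, against 1.15%). Of 33 SOX and FOX genes 6 were lower (18.2%) and 0 higher. SOX9, a factor of intestinal stem and Paneth cells, was at 178, 148 and 178 CPM in Ctrl scramble, 187, 196 and 184 in Ctrl siLonp1, 211, 204 and 172 in HS scramble and 111, 134 and 136 in HS siLonp1. The heated siLonp1 libraries were the lowest (interaction −0.80, SE 0.12, adjusted p = 0.000836). FOXJ1, the factor of motile cilia, rose 21.9-fold with heat in scramble and 8.20-fold in siLonp1 cells from under 1 CPM (interaction −1.42, SE 0.26, adjusted p = 0.00363). HOXA7 (−0.55, adjusted p = 0.00126) was called lower and HOXC13 (0.52, adjusted p = 0.0028) higher. The fit to 18 libraries called 4 homeobox genes lower (14.3%, against 1.39% of all genes) and 1 higher (3.57%, against 0.475%). Without HS scramble replicate 3 there were 12 SOX and FOX genes called lower (36.4%, against 9.47% of all genes).

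Targets and regulators of WNT signalling, which keeps colon stem cells dividing, had 5 of 17 members called lower (29.4%, against 4.65% of all genes) and 0 higher. LGR5, the stem cell receptor for R-spondins, was at 70.4, 65.9 and 70.5 CPM in Ctrl scramble, 55.6, 53.6 and 53.9 in Ctrl siLonp1, 52.7, 53.7 and 51.8 in HS scramble and 24.3, 26.2 and 27.2 in HS siLonp1. Heat lowered it in both arms, further in siLonp1 cells, and HS siLonp1 was below all others (interaction −0.68, SE 0.074, adjusted p = 3.59e-05). AXIN2, a negative feedback regulator, was raised by heat in scramble and lowered in siLonp1 cells (interaction −0.50, adjusted p = 0.00154). RNF43, a ligase that removes WNT receptors (−0.58, adjusted p = 0.000373), and SP5 (−0.63, adjusted p = 0.00203) were lower too. Leaving out HS scramble replicate 3 gave 9 lower genes (52.9%, against 9.47% of all genes).

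The NOTCH list had 4 of 13 members called lower (30.8%, against 4.65% of all genes). Among them were HES1 (−0.45, adjusted p = 0.00622), a repressor induced by NOTCH, and the ligands JAG2 (−0.41, adjusted p = 0.0116) and JAG1 (−0.32). The call of NOTCH1 (−0.43, and −0.51 to −0.32 over the fits that leave out a library) was kept in 3 of the 12 fits, the same as for HSP90AA1. That of JAG1 was lost without replicate 2 or 3 of Ctrl scramble, or replicate 1 or 2 of Ctrl siLonp1 or of HS scramble, with values of −0.37 to −0.26. The fit to 18 libraries called 0 of the NOTCH list, with 1951 genes of all at an unadjusted p under 0.05. For TGF-beta and BMP signalling 4 of 28 were lower (14.3%, against 4.65% of all genes) and 1, TGFBR3, higher (3.57%, against 1.15%). ID1, a target of BMP, was at 89, 97.5 and 96.7 CPM in HS scramble and 70.9, 61.8 and 65.9 in HS siLonp1, from 27 to 32.2 in all unheated libraries, so the arms overlapped only before heat (interaction −0.55, SE 0.098, adjusted p = 0.00304). Without HS scramble replicate 3 there were 12 lower genes in this list (42.9%, against 9.47% of all genes). In the fit to 18 libraries there was 1 (3.57%, against 1.39%).

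Immediate early genes, which answer growth factors and stress within minutes, had 9 of 29 called lower (31.0%, against 4.65% of all genes). In this list 1, ATF3, was called higher (3.45%, against 1.15%), and the median interaction was −0.25. EGR1 was at 52.6, 46 and 47.9 CPM in Ctrl scramble, 70.3, 78.5 and 64 in Ctrl siLonp1, 1496, 1571 and 1260 in HS scramble and 1234, 1474 and 1402 in HS siLonp1. The arms were apart before heat, siLonp1 being higher (interaction −0.61, SE 0.12, adjusted p = 0.00595). After heat they overlapped only through HS scramble replicate 3, the lowest of its group, and its mates were above all HS siLonp1 libraries. CYR61, a secreted matrix protein (−0.68, adjusted p = 0.000373), and ZFP36, which destabilises AU-rich transcripts (−0.49), had the same pattern, including the place of that library. The fit to 18 libraries called 5 of the list lower (17.2%, against 1.39% of all genes). KLF factors had 4 of 11 called lower (36.4%, against 4.65% of all genes), and 7 without HS scramble replicate 3 (63.6%, against 9.47%). KLF6 was at 37.6, 36.1 and 39 CPM in Ctrl scramble and between 58.3 and 63.4 in the 9 other libraries, and its heat effect was not called in siLonp1 cells (interaction −0.68, SE 0.073, adjusted p = 3.59e-05).

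The kinases SGK1, PIM1 and PIM3, which promote survival, were the 3 of 5 PIM and SGK genes called lower (60%, against 4.65% of all genes). SGK1 was at 1.59, 1.19 and 1.55 CPM in Ctrl scramble, 3.35, 3.34 and 3.15 in Ctrl siLonp1, 2.42, 3.12 and 1.94 in HS scramble and 2.04, 2.29 and 2.25 in HS siLonp1. It rose with heat in scramble cells and fell in siLonp1 cells (interaction −1.40, SE 0.23, adjusted p = 0.00144). The heated arms overlapped only through HS scramble replicate 3, and the other heated scramble libraries were above all HS siLonp1 libraries. SOCS3, a brake on cytokine signals, was at 3.62, 4.11 and 3.35 CPM in Ctrl scramble, 17.1, 12.4 and 13.2 in Ctrl siLonp1, 7.70, 9.51 and 8.96 in HS scramble and 14.1, 18.3 and 15.6 in HS siLonp1. Here the siLonp1 arm stayed above the scramble arm, and the heat effect was called in the scramble arm and not in the siLonp1 arm (interaction −1.06, SE 0.18, adjusted p = 0.00212).

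Genes that build ribosomes in the nucleolus had 10 of 34 called lower (29.4%, against 4.65% of all genes) and 0 higher, and 5 of the 34 had an interaction above 0. MYBBP1A, a nucleolar regulator of ribosomal RNA synthesis, was at 183, 177 and 147 CPM in HS scramble and 98.1, 112 and 107 in HS siLonp1, with 164 to 203 in the unheated libraries (interaction −0.54, SE 0.11, adjusted p = 0.00551). The heated arms did not overlap. In 7 of the 10 the call was lost without some 1 library, and the fit to 18 libraries called 1 (2.94%, against 1.39% of all genes). Without HS siLonp1 replicate 1 there were 5 (14.7%, against 3.69%). With all 12 libraries few or no genes were called of the proteasome (0 higher and 1 lower of 47), NRF2 targets (0 and 0 of 22), the citric acid cycle (0 and 0 of 22) and mitochondrial import (0 and 0 of 26). Those of the proteasome and of mitochondrial import turned on 1 library: without HS scramble replicate 3 the proteasome had 11 higher (23.4%, against 4.99% of all genes) and mitochondrial import 6 (23.1%). Without both libraries that stood apart they had 5 (10.6%) and 3 (11.5%), against 4.01% of all genes. In NRF2 targets and the citric acid cycle the higher genes came to 2 (9.09%) and 1 (4.55%) without HS scramble replicate 3, beside the rise in all genes. Of 17 mitochondrial proteases 1 was called, LONP1 itself.

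**Figure D3:**
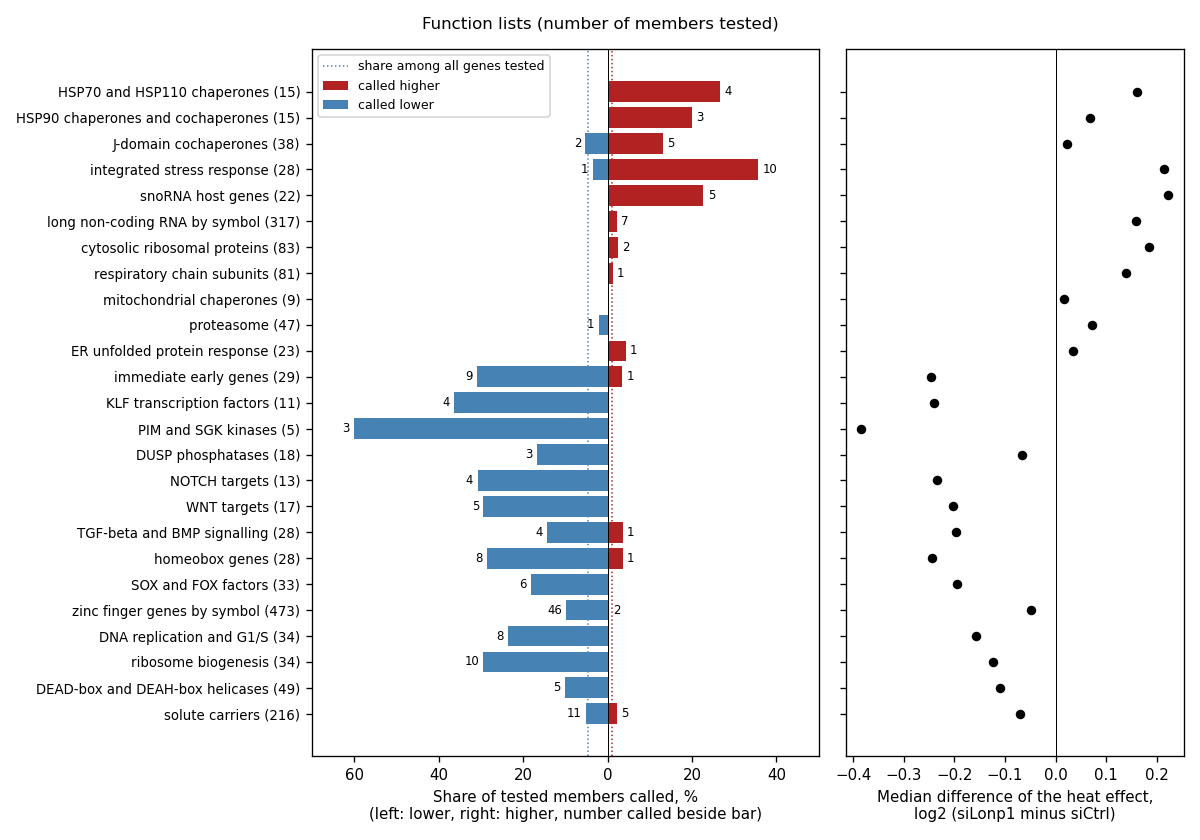
For each function list, the bars on the left give the percent of tested members called lower and higher in the interaction, with their number, and the dotted lines the percent of all genes (4.65% and 1.15%). The points on the right are the median interactions, log2. The HSP70, HSP90 and integrated stress response lists lie on the higher side, and the immediate early, KLF, WNT, NOTCH, homeobox, ribosome biogenesis and replication lists on the lower side. The J-domain list is over the share of all genes on both sides (13.2% higher, 5.26% lower), with a median interaction of 0.02.

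Heat effects of opposite sign in the arms were seen in 37 of the called genes. In 33 of them heat raised the gene in scramble cells and lowered it in siLonp1 cells. By smallest p these were led by ZNF367, CDT1, CCNJ, POLD3 and NR1D1. CCNJ, a cyclin, was at 28, 26.4 and 26.5 CPM in Ctrl scramble, 33.2, 36.3 and 34.3 in Ctrl siLonp1, 32.0, 32.5 and 34.2 in HS scramble and 28.1, 28.8 and 28.2 in HS siLonp1 (interaction −0.57, SE 0.077, adjusted p = 0.000284). NR1D1, a repressor of the circadian clock, moved from 19.46 ± 1.21 CPM (SD, n = 3) to 25.81 ± 2.87 in scramble and from 32.61 ± 3.25 to 23.44 ± 2.17 in siLonp1 cells (interaction −0.89, SE 0.13, adjusted p = 0.000384). In both the arms were apart before heat, and those of NR1D1 overlapped after it only through HS scramble replicate 3. The 4 genes of the reverse kind, named after their values were seen, were NUPR1, TP53TG1, CNPY1 and DNAJC22. In the 12 fits that leave out a library the call was kept in 12 for NUPR1, 5 for TP53TG1, 3 for CNPY1 and 10 for DNAJC22. NUPR1, a stress-induced nuclear protein downstream of ATF4, was at 3.13, 3.6 and 3.10 CPM in Ctrl scramble, 2.07, 1.62 and 1.60 in Ctrl siLonp1, 2.17, 2.29 and 2.10 in HS scramble and 2.59, 2.40 and 2.15 in HS siLonp1 (interaction 1.01, SE 0.19, adjusted p = 0.0045).

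The interaction is also the silencing effect at 42 °C minus that at 37 °C. Silencing raised 29.4% and lowered 25.4% of all genes at 37 °C, and raised 29.2% and lowered 30.6% at 42 °C. Of the 589 genes with a lower heat effect, 207 had no called silencing effect at 37 °C and were lower in siLonp1 cells at 42 °C, as RNF43 was, and 125 were lower at both, as LGR5 and HMGA2 were. A further 119 were higher in siLonp1 cells at 37 °C with no call at 42 °C, as KLF6, EGR1 and SGK1 were, and 76 changed from higher to lower, as ZNF367 did. Of the 146 genes with a higher effect, 49 were called higher only at 42 °C, 37 were higher at both, 29 were lower at 37 °C with no call at 42 °C, as SESN2 and HERPUD1 were, and 20 changed from lower to higher, as HSPH1, CHAC1 and DEDD2 did.

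**Figure D4:**
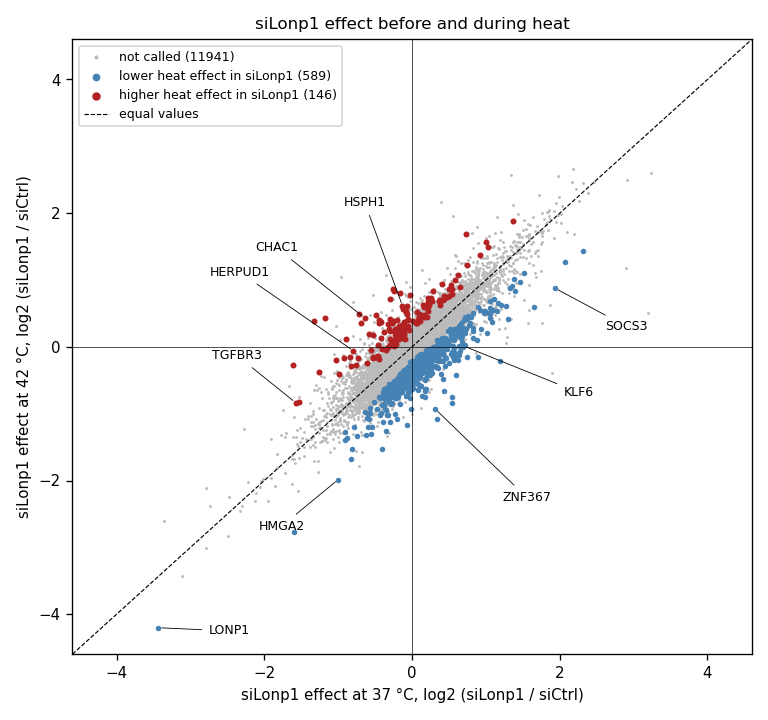
Each point is a gene, with the log2 silencing effect at 37 °C on the horizontal axis and at 42 °C on the vertical axis, and coloured points passed the test of the interaction. LONP1 lies at −3.43 and −4.20. The called genes lie on both sides of 0 at 37 °C, and 1 gene is outside the axes.

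The called genes also differed in structure from the genes tested, in GENCODE 44 on GRCh38, where 91.8% of the higher, 96.1% of the lower and 92.8% of all were matched. The median transcript length was 2538 bases in the higher, 3732 in the lower and 3283 in all genes, and the median number of exons was 5.5, 8 and 9. Median GC content was 47.1%, 53.1% and 48.9%. When genes were put in 5 bins of like size by length, the share of lower genes was 1.19% in the bin of the shortest and 4.21% to 7.26% in the others, while that of higher genes was 0.765% to 1.74%. Long non-coding genes made up 10.4% of the matched higher genes, 0.353% of the lower and 3.32% of all. The part of length and GC content in the calls was not tested.

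After 1 h of recovery, in libraries that the interaction did not use and with no test, HSPH1 was at 4124, 5063 and 4550 CPM in scramble and 6306, 7266 and 5419 in siLonp1 cells, so it stayed higher in all 3 siLonp1 libraries. DNAJB6 was at 421, 486 and 455 and at 551, 561 and 500. CHAC1 no longer separated the arms, with 122, 142 and 150 in scramble and 178, 146 and 116 in siLonp1 cells. CDC25A remained lower in siLonp1 cells, at 71, 73.6 and 88.5 against 117, 108 and 110, and HMGA2 at 21.1, 23.4 and 27.5 against 76.7, 72.2 and 67.5. The arms of ZNF367 overlapped, at 42.3, 39 and 42.9 in scramble and 36, 42 and 45 in siLonp1 cells.

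**Figure D5:**
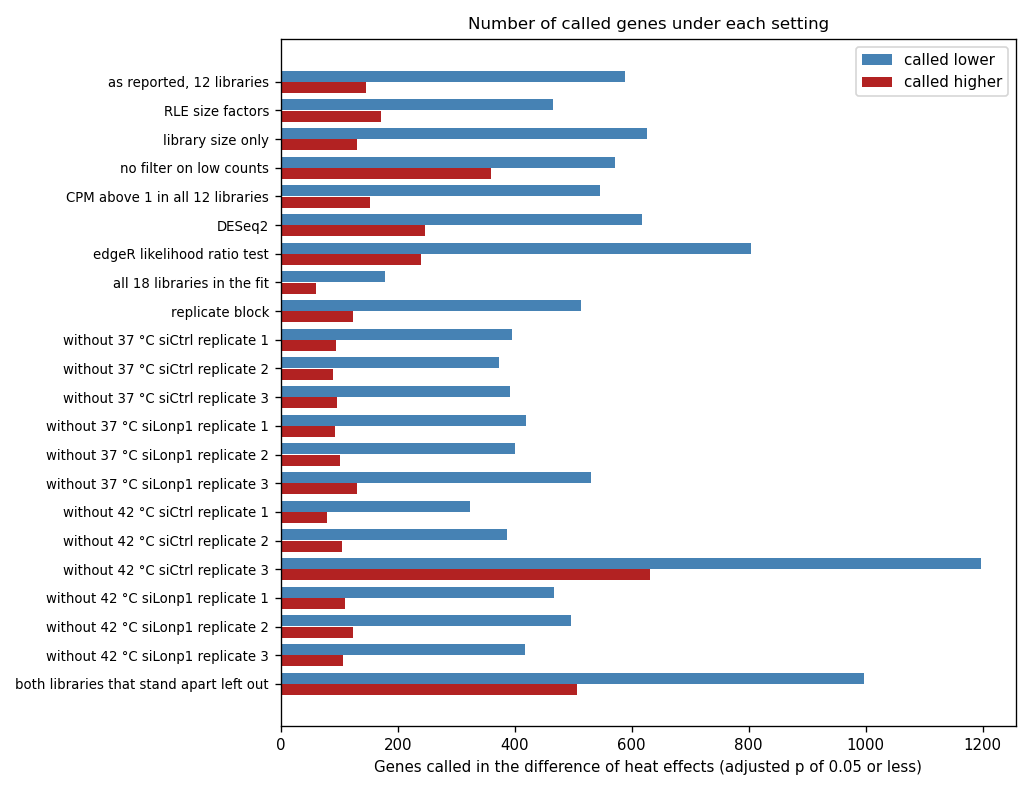
Number of genes called higher and lower in the interaction under each way of processing the counts and with each library left out. The counts are 146 and 589 as reported, fall to 61 and 179 when 18 libraries share the fit, and reach 631 and 1197 without HS scramble replicate 3.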

How the data were processed

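RNAseq of SW620 cells was analysed. According to the study's methods and the labels, the authors prepared TruSeq stranded libraries, sequenced both ends of each fragment, mapped to hg38 by STAR 2.7.3a and counted reads per gene with featureCounts, with edgeR in R 3.6.3 for their own tests. The deposited values are raw read counts per gene symbol, with no normalization. The strand and multimapping settings, the annotation release and duplicate removal are not given in the sources used here, so counting error is a lower limit. All columns were matched to samples by name, and 0 columns belonged to no sample.

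Here the 12 libraries of the 4 groups were scaled by TMM factors (0.948 to 1.05) and fitted in edgeR 4.0.16 (R 4.3.3), with 1 coefficient per group and the quasi-likelihood test. Calls needed a Benjamini-Hochberg adjusted p of at most 0.05 with any fold, and counts with a fold over 2 are given beside. The common biological coefficient of variation was 0.0544 (0.0658 over 18 libraries). The 3 samples of a group are, per the study's methods, independent biological replicates of 1 cell line, so p-values measure the spread between these. Alternatives were RLE factors, library size alone, other filters, DESeq2 1.42.0, the likelihood ratio test, all 18 libraries, a replicate block and leaving out libraries. The scripts were tested on simulated counts.

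Named genes were LONP1, HSF1 and HSF2, the called genes of at least 5 CPM with the 10 largest interactions and the 5 smallest p-values in each direction, the 5 smallest p-values among genes with opposite heat effects, and up to 4 called members of each function list. Other list members are named to show members that were not called, or as the lower member of a list, after their values were seen. The gene lists were written from general knowledge, the classes of zinc finger and long non-coding genes by symbol. The comparison, the lists and the rules were chosen with earlier results of these data known. Some called genes are not reported here.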

Additional observations from a re-analysis of the deposited data

Results flagged for a closer look

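Heat effects that differed between the siRNA arms, by the test of the interaction in edgeR, were found in 146 genes with a higher and 589 with a lower effect in siLonp1 cells. In 37 genes the heat effects were called with opposite signs in the arms. Those with the smallest p were ZNF367 (−1.25), CDT1 (−0.693), CCNJ (−0.572), POLD3 (−0.454) and NR1D1 (−0.891), all of which passed in each of the 12 fits that leave out a library. POLD3, a subunit of DNA polymerase delta, was at 55.9, 56.9 and 54.8 CPM in Ctrl scramble, 75.5, 78.8 and 79.8 in Ctrl siLonp1, 62.8, 63.7 and 61.8 in HS scramble and 64.8, 63.2 and 64.1 in HS siLonp1. The difference between the arms lay at 37 °C in POLD3, and the heated arms overlapped.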

How the results depend on the processing

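The 146 higher and 589 lower genes became 360 and 572 with no filter on low counts, 247 and 617 with DESeq2, 240 and 804 with the likelihood ratio test, 61 and 179 with 18 libraries, 506 and 997 without the pair of libraries that stood apart (chosen after seeing the data), and 50 and 232 at an adjusted p of 0.01. RLE factors gave 172 and 465, and library size alone 131 and 626. Leaving out 1 library gave 79 to 631 higher and 324 to 1197 lower genes. The share of lower genes among those called was 80.1%, 61.4% with no filter, 71.4% with DESeq2 and 65.5% without HS scramble replicate 3. Over 2-fold, the 10 higher and 13 lower genes became 21 higher with no filter, 3 and 8 when all 12 libraries had to exceed the minimum, and 4 higher with DESeq2, with leave-one-out ranges of 4 to 18 and 8 to 19. The median interaction of heat-lowered genes, −0.48, was −0.28 with no filter and −0.52 to −0.44 over the leave-one-out fits, and that of heat-raised genes, 0.10, was 0.07 to 0.11. The cause was not tested.

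Whether libraries of the same replicate number belong together could not be told. Correlations of deviations from group means ran from −0.244 to 0.264 between libraries of the same number and from −0.334 to 0.426 between others. With 3 libraries a group these deviations depend on each other. The value of 0.426 was that of HS scramble replicate 3 with HS siLonp1 replicate 1, which both stood apart. The fit with a replicate block called 124 higher and 513 lower genes, 117 and 494 of them shared.

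With 3 libraries a group and differences mostly under 2-fold, many calls lie near the threshold: 62 higher and 289 lower genes kept their call in all 12 fits that leave out a library, and 2572 genes had an unadjusted p under 0.05.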
